A study of Homo sapiens with 2 samples.

Results

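The THAP domain genes encode a small family of zinc-coordinating DNA-binding proteins. THAP1, THAP2, THAP3, THAP4, THAP5, THAP6, THAP7, THAP8, THAP9 and THAP11 are described here in GFP-SAS cells, a line of squamous cell carcinoma of the tongue that carries green fluorescent protein. The members were chosen by symbol, as all probe sets of the deposited expression table that the platform annotation pairs with one of these symbols alone. They comprise 10 of the 11272 genes with a value and 19 of the 49386 probe sets. The anti-miR group was given an antisense oligonucleotide of LNA and DNA, directed at miR-361-3p, at 25 nM for 24 h. The control group was given the same dose of a non-target oligonucleotide for the same time, so both groups carried an LNA/DNA oligonucleotide. The study asked which genes change when this microRNA is inhibited. Each group was measured on 1 array from 10 ng of total RNA, labelled with biotin for 3' expression arrays. There were no replicates, so no difference below can be set against the variation between cultures, and no p-value is given. Whether the line is a single clone is not given in the sources used here, and the level of miR-361-3p itself was not analysed here.

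A THAP domain folds around a zinc ion held by cysteines and a histidine, and it reads DNA through both grooves. THAP1 and THAP11 are the best described members. They bind HCF-1, a host cell factor that joins sequence-specific factors to histone-modifying enzymes, and they occupy promoters of cell cycle and metabolic genes. Other members recruit corepressors, and THAP9 is related to the transposase of the P element. MicroRNAs act mainly through their seed, which pairs with sites in target transcripts. The inhibited microRNA and the other arm of its hairpin are shown so that their seeds, bases 2 to 8 in capitals, can be compared. Both were taken from RefSeq on GRCh38.p14, minus strand, at chrX:85903641-85903663 and chrX:85903681-85903702.
hsa-miR-361-3p: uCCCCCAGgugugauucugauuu
hsa-miR-361-5p: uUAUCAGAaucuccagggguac
The seeds of the 2 arms differ. Whether a THAP transcript holds a site for either seed was not analysed here, because transcript sequences were not used.

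The deposited values are RMA expression values on a log2 scale, with array medians of 4.64 (anti-miR) and 4.63 (control). RMA corrects background and makes the distributions of arrays alike. Probe sets at or above the array median on 1 array or both were retained, and gene values average the retained probe sets. Each difference is anti-miR minus control in log2 units, and genes are counted at 1.5-fold, a difference of 0.58. Where a gene has several retained probe sets, the SD between them is given as a technical error within the arrays. Such probe sets share the RNA and can share probes, so this SD holds no variation between cultures. Its pooled value over 6263 genes was 0.29. The spiked poly-A controls differed by 0.32 ± 0.19 (SD over 12 probe sets), the anti-miR array being higher. The 23 nonspecific control probe sets reached 7.16 (anti-miR) and 6.87 (control). GAPDH differed by -0.0047 (1 probe set) and ACTB by -0.13 ± 0.01 (SD over 3 probe sets). Of 14 epithelial markers listed, 11 were named on the array and 9 lay above the nonspecific probe sets on both arrays. These were CDH1, DSP, EPCAM, ITGA6, ITGB4, KRT5, KRT8, KRT18 and SFN. The listed KRT6A, KRT14, KRT17, TP63 and PKP1 were not among them, being either unnamed or not above those probe sets. No marker of fibroblasts (6 genes), endothelium (5), leukocytes (4) or skeletal muscle (5) lay above them on both arrays. Of 4 neuronal markers TUBB3 did.

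Of the 10 members, 4 were at least 1.5-fold higher with the anti-miR: THAP2, THAP3, THAP7 and THAP9. None was at least 1.5-fold lower, and the other 6 lay within that range. Among all genes, 8.23% were at least 1.5-fold higher and 14.2% at least 1.5-fold lower. These values are a description of the contrast for which the family was chosen, so they are not evidence about the family. The median member differed by 0.37 (group medians 6.08 and 5.69), and by 0.30 without THAP2, beside 0.13 for the median gene. The upper quartile of all genes, 0.33, was exceeded by 5 members, and 7 lay above the median gene. Only THAP2 was at least 2-fold higher, as were 1.23% of genes. THAP7, at 0.63, lay just past the threshold and THAP8, at 0.45, was the nearest member short of it. In bulk RNA of this kind, fewer cells with a transcript and less transcript per cell cannot be told apart.

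**Figure D1:**
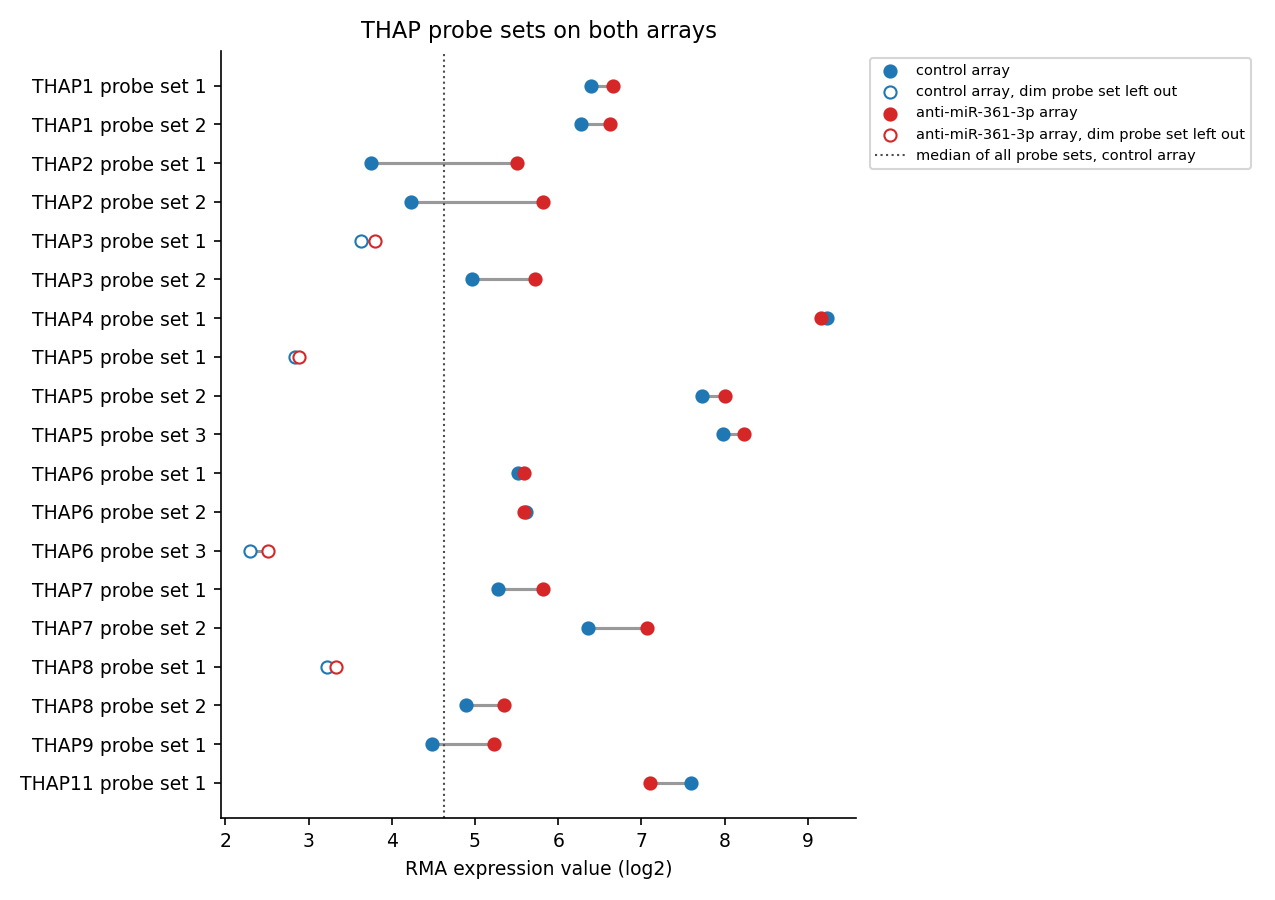
RMA values (log2, x axis) of the 19 THAP probe sets on the control array (blue) and the anti-miR array (red), joined by a grey line, with open circles for the 4 dim probe sets left out of gene values and a dotted line at the control median of 4.63. The lines of both THAP2 probe sets and of THAP9 cross the median, and the single THAP11 probe set is lower on the anti-miR array.

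All 10 members had at least 1 retained probe set, and 15 of the 19 probe sets were retained. Of these, 12 were higher on the anti-miR array and 3 lower. The 4 dim probe sets, one each of THAP3, THAP5, THAP6 and THAP8, differed by 0.05 to 0.21. THAP2 and THAP9 were retained through the anti-miR array alone, since their control values lay below the median. A gene retained in that way had to be higher on the anti-miR array. Of the 609 genes with a control value below the median, 15.9% were at least 1.5-fold higher and 0% lower, with a median difference of 0.35. On both arrays 3 probe sets, one of THAP4 and a pair of THAP5, lay above the nonspecific control probe sets. THAP11 did so on the control array alone. The other members are not shown to be above the brightest nonspecific probe set, so their folds are not exact sizes. That cut rests on the single highest probe set of each array, the next reading 5.14 (anti-miR) and 4.81 (control). The control values of THAP2 and THAP9 lay below that next value as well.

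**Figure D2:**
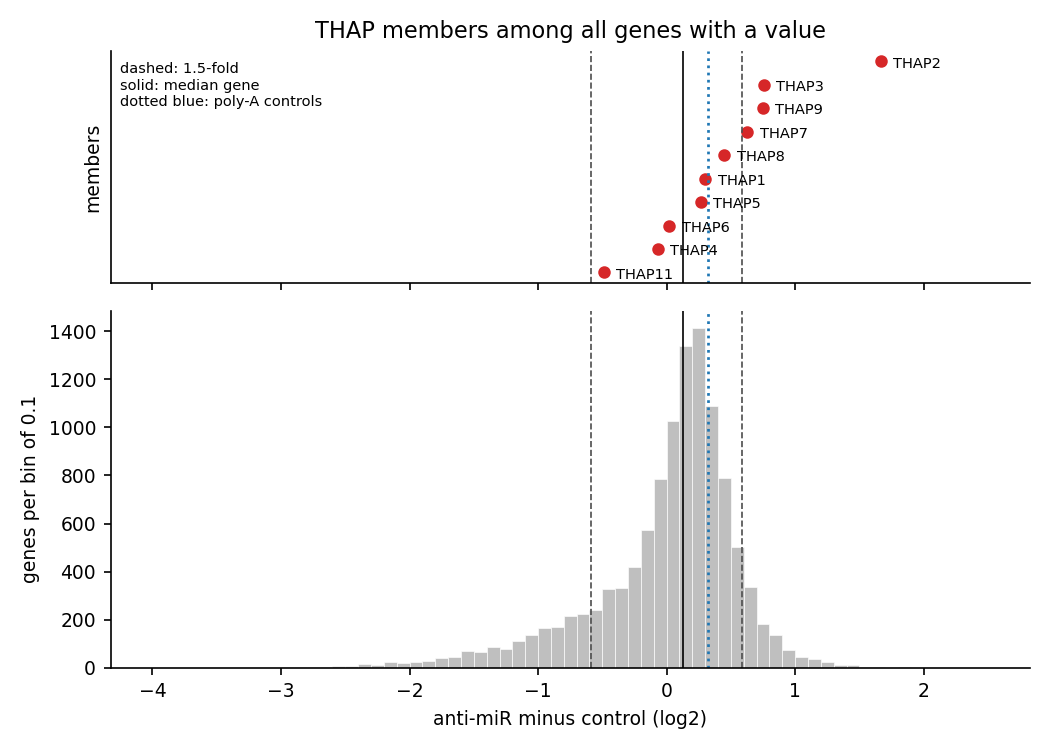
Anti-miR minus control differences (log2, x axis) of the 10 THAP members (red points, top) above the distribution over 11272 genes (grey bars, genes per bin of 0.1). Dashed lines mark 1.5-fold, the solid line the median gene at 0.13 and the dotted line the poly-A controls at 0.32; THAP2 lies far to the right at 1.67 and THAP11 is the lowest member at -0.49.

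THAP2 is a short THAP protein for which little is described. Its first probe set read 5.50 with the anti-miR and 3.74 in the control. Its second read 5.81 and 4.23. Both probe sets were higher on the anti-miR array, at 3.37-fold and 2.99-fold. Both control values lay below the array median, and all the values lay below the top of the nonspecific probe sets, so these folds and the rank below are descriptions of dim signals. The gene differed by 1.67 ± 0.12 (SD over 2 probe sets), or 3.17-fold, from 3.99 to 5.66, which placed it 8 of 11272 genes by increase. Of the 609 genes with a control value below the median, 23 (3.78%) were at least 2-fold higher. Its difference ran from 1.35 to 1.67 over the 8 settings that kept it, and the 75th percentile filter left it without a value. With no filter, the median of probe sets or plain _at probe sets, the same 2 probe sets were in use. Its value was then the reported one by construction, so the settings are not separate checks.

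The genes whose pair of array values lay closest to that of THAP2, by Euclidean distance over the 2 arrays, were NECTIN4, LIN37, SNORA84, FZD1 and PGBD2. NECTIN4, a cell adhesion molecule, read 5.56 and 4.05 (distance 0.11). LIN37, a subunit of the DREAM complex that represses cell cycle genes, read 5.49 and 4.08 (distance 0.19). SNORA84, a small nucleolar RNA, read 5.45 and 4.26, and FZD1, a Wnt receptor, 5.67 and 4.39. PGBD2, a gene derived from a piggyBac transposon, differed by 1.11. Each of the 5 had 1 retained probe set and a control value below the array median.

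The bases upstream of THAP2 are shown because this member had the largest difference of the family. The stretch runs 250 bases up to the start of the transcript, at chr12:71664051-71664300 on the plus strand (RefSeq, GRCh38.p14).
THAP2 upstream: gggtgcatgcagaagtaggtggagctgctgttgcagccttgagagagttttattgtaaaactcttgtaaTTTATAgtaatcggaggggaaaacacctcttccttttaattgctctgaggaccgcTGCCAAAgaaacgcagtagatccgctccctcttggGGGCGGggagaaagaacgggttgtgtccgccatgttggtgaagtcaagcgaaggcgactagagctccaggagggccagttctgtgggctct
Capitals mark the matches to the motifs searched. From left to right they are TATAAA on the other strand at position -181 from the start, TNNGGCA on the other strand at -126, and the GC box GGGCGG at -91. The window of THAP2 had a GC content of 51.3%, the lowest of the members, whose 13 windows had a median of 66.3% beside 58.7% over all windows.

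THAP9, THAP3 and THAP7 were the other members past 1.5-fold. THAP9 encodes a protein that has kept transposase activity. Its single probe set read 5.23 with the anti-miR and 4.49 in the control. The control value lay below the median, and the difference was 0.75, or 1.68-fold. THAP3 binds HCF-1. Its retained probe set read 5.72 and 4.96, a difference of 0.76 or 1.69-fold. The dim one read 3.80 and 3.63, a difference of 0.17, and the mean over both, 0.46, was short of 1.5-fold. THAP7 binds histone tails and recruits the deacetylase HDAC3 and the nuclear receptor corepressor. Its probe sets read 5.82 against 5.28 and 7.07 against 6.36, so each was higher on the anti-miR array. The gene differed by 0.63 ± 0.12 (SD over 2 probe sets), or 1.54-fold. The brighter probe set belongs to the _x_at class, whose probes can match other transcripts. THAP7 fell short of 1.5-fold once differences were centred on the median gene (0.50), on a lowess trend (0.54) or on the poly-A controls (0.31). THAP3 and THAP9 fell short with the poly-A centring, at 0.44 and 0.43.

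THAP1, THAP5 and THAP8 were higher by less than 1.5-fold. THAP1 regulates cell cycle genes with HCF-1 and the glycosyltransferase OGT, and its mutation causes a form of dystonia. Its probe sets read 6.66 against 6.40 and 6.62 against 6.27. The difference of 0.30 ± 0.06 (SD over 2 probe sets) was close to that of the poly-A controls. THAP5, a nuclear protein cleaved by the protease HTRA2 during cell death, was among the brightest members. One retained probe set read 8.23 against 7.98, and the other was higher by 0.28 from a control value of 7.72, both above the nonspecific probe sets on both arrays. The gene differed by 0.27 ± 0.01 (SD over 2 probe sets). RefSeq lists 2 pseudogenes of THAP5 and 1 of THAP3, and signal from such copies cannot be told apart here where probes match them. THAP8 read 5.34 against 4.90, a difference of 0.45. Its dim probe set differed by 0.11, and the mean over both was 0.28. Centred on the poly-A controls, THAP1 and THAP5 changed sign, to -0.02 and -0.05.

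THAP6, THAP4 and THAP11 were the members at or below the median gene. The retained probe sets of THAP6 read 5.59 against 5.51 and 5.58 against 5.62, so they differed in opposite directions. The gene differed by 0.02 ± 0.08 (SD over 2 probe sets), and its sign changed with the setting. THAP4 carries a heme-binding domain behind its THAP domain. It read 9.16 against 9.23, the brightest probe set of the family, and differed by -0.07. This probe set and those of THAP5 belong to the _s_at class, and whether their probes match other transcripts was not tested. THAP11, also known as Ronin, works with HCF-1 and ZNF143 at promoters and is needed for cobalamin metabolism. It read 7.11 with the anti-miR and 7.59 in the control, a difference of -0.49 or 1.40-fold lower. Of all genes 16.3% had a lower value than this. THAP11 passed 1.5-fold on the lower side once differences were centred on the median gene (-0.62), on a lowess trend (-0.60) or on the poly-A controls (-0.81). The order of the members by gene value, which mixes the level with the affinity of the probes, put THAP4, THAP5, THAP11, THAP1 and THAP7 in the same places on both arrays. THAP2 moved from place 10 on the control array to place 7.

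**Figure D3:**
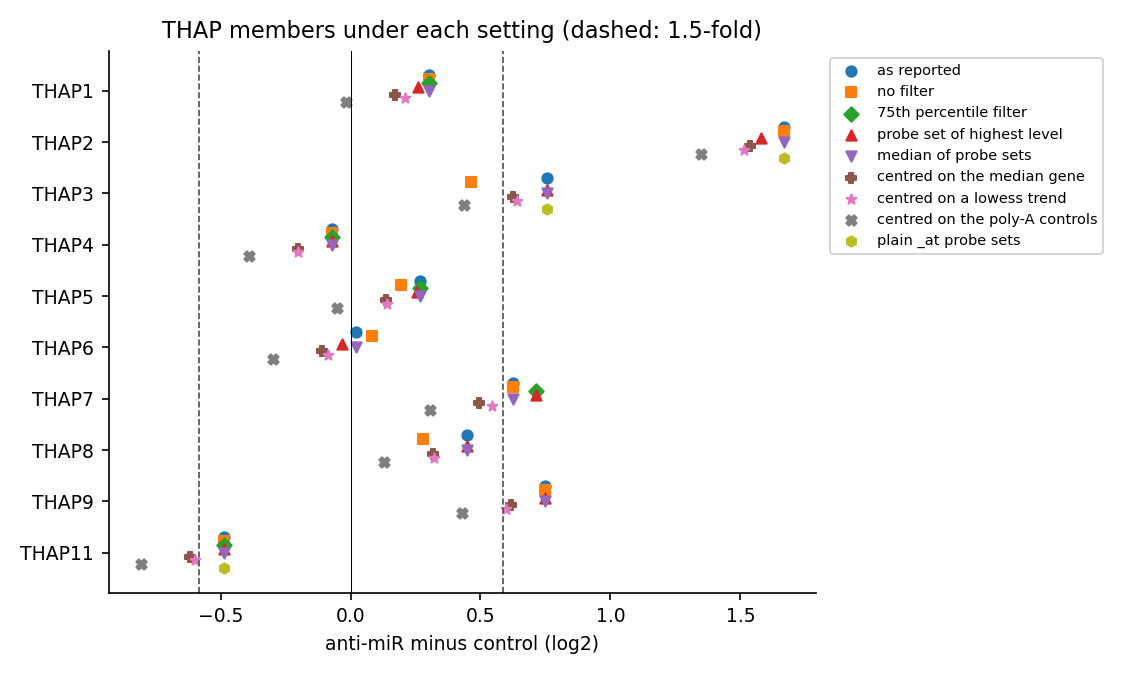
Anti-miR minus control difference (log2, x axis) of each THAP member, a marker for each of 9 settings of the filter, the gene summary, the scaling and the probe set class, with dashed lines at 1.5-fold. THAP2 stays right of the upper line in each setting that gave it a value, while THAP3, THAP7 and THAP9 fall on both sides of it and THAP11 crosses the lower line under 3 scalings. Some settings give a member the same value by construction.

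The family has further genes on the array that the selection did not include, THAP10 and THAP12, named here after their values were seen. THAP10 read 8.07 against 7.33 (1 probe set), above the nonspecific probe sets on both arrays, and was 1.67-fold higher. THAP12, whose product acts on an inhibitor of the kinase PKR, differed by -0.12 ± 0.07 (SD over 2 probe sets).

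Differences followed gene span over all genes, so the members were set beside genes of like span, in 10 groups of equal size. Over 11264 genes with a span in the RefSeq table, Spearman's rho between span and difference was -0.49. Genes are not independent replicates, and this is a description. The group of shortest genes, with a median span of 2.66 kb, had a median difference of 0.25, and that of the longest, at 214 kb, one of -0.64. The members were short to middling, from 1.88 kb for THAP11 to 53.2 kb for THAP4. Of the 10 members, 7 lay above the median of their span group. THAP2 exceeded it by 1.42, THAP9 by 0.50, THAP3 by 0.49 and THAP7 by 0.38. THAP8, THAP5 and THAP1 exceeded it by 0.25, 0.11 and 0.04, less than the pooled SD between probe sets. THAP6 and THAP4 lay below it, at -0.13 and -0.12, also by less than this SD. THAP11, the shortest member, lay lowest against its span group, at -0.74. Over the 10 members Spearman's rho with span was -0.21. With mean level it was -0.81, given as a description over 10 points that share both arrays and a filter that favours dim genes higher on one of them.

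**Figure D4:**
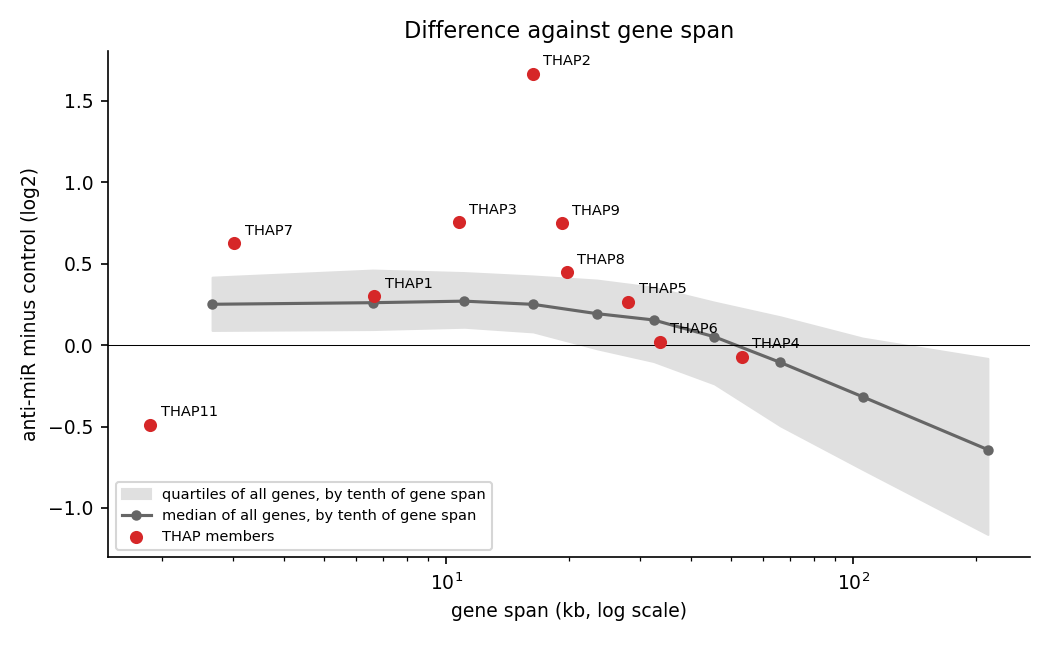
Anti-miR minus control difference (log2, y axis) against gene span (kb, log scale) for the 10 THAP members (red), with the median (line) and quartiles (band) of all genes in each of 10 span groups. THAP2, THAP3, THAP7, THAP8 and THAP9 lie above the band, THAP11 lies below the values of similarly short genes, and the other members lie within it.

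Neighbouring genes are described beside the members, and whether a difference extended along the chromosome was not tested. Neighbours differ in span, which differences followed over all genes. SEC31A spans 82.1 kb and DNAJC11 67.6 kb. Of all genes, 8.23% were at least 1.5-fold higher and 14.2% lower. THAP2 shares its upstream region with ZFC3H1, a gene for an RNA exosome adaptor that starts close by on the opposite strand. ZFC3H1 differed by -0.17 ± 0.18 (SD over 3 probe sets) and TMEM19, on the other side, by 0.03 ± 0.34 (SD over 4 probe sets), so neither neighbour of THAP2 shared its difference. SEC31A, a COPII coat subunit that starts nearest to THAP9, was 2.03-fold lower (-1.02, 1 probe set), and LIN54 on the other side of THAP9 differed by -0.20. DNAJC11, which overlaps THAP3, was 1.67-fold lower at -0.74 ± 0.42 (SD over 2 probe sets). PHF13, the nearest start to THAP3, was 1.69-fold higher (0.76, 1 probe set), as was THAP3 itself. LZTR1, on the opposite strand with its 3′ end towards that of THAP7, differed by 0.57 (1 probe set), close to the 0.63 of THAP7, and P2RX6 by 0.25.

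Among the neighbours of members within 1.5-fold, DNAJB9 and RCHY1 were themselves past it. DNAJB9, an ER chaperone that starts nearest to THAP5 on the opposite strand, was 1.91-fold higher at 0.93 ± 0.02 (SD over 2 probe sets), beside 0.27 for THAP5. RCHY1, a ubiquitin ligase that overlaps THAP6, was 1.79-fold higher at 0.84 ± 0.04 (SD over 2 probe sets), beside 0.02 for THAP6. CENPT, a centromere protein that overlaps THAP11, differed by 0.25 (1 probe set), against -0.49 for THAP11, and NUTF2 by 0.13. ATG4B and BOK, beside THAP4, differed by 0.18 and 0.34, and PNPLA8, beside THAP5, by 0.32. WDR62 and CLIP3, beside THAP8, differed by 0.21 and 0.32, and CAMTA1, beyond THAP3, by -0.20. RNF170 and CHRNA6 beside THAP1, PARM1 and ODAPH beside THAP6 and TSNAXIP1 beside THAP11 had no retained probe set. THAP7 and THAP9 overlap the antisense RNAs THAP7-AS1 and THAP9-AS1, which no probe set used here names. Whether the probes for overlapping genes keep the strands apart was not tested.

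Promoter windows of 300 bases, 250 before to 50 after a start, were found in RefSeq for 9 of the members, 13 windows in all. TNNGGCA was searched as a core of THAP1, but it is not shown to be a sequence that THAP1 binds. It was in windows of 5 members (THAP2, THAP3, THAP4, THAP8 and THAP9). That is 46.2% of the 13 windows beside 39.8% of all 35116 windows, searched on both strands. ACTACA, part of the site shared by ZNF143 and THAP11, was in 0 of the 13 windows and in 8.46% of all. The ETS core CCGGAAG was in windows of THAP5, THAP7 and THAP11, 38.5% beside 10.3%. All the windows of THAP5 count in that share, and some of them overlap and hold the same match. GGGCGG, a GC box, was in windows of 8 members (69.2% beside 45.0%), CCAAT in those of 4 (38.5% beside 34.6%) and TATAAA in that of THAP2 alone (7.69% beside 11.5%). Windows of 1 gene can overlap, so the 13 are not independent. Their median GC content was 66.3% beside 58.7% over all windows, and the shares were not adjusted for it. A match is a description of the letters and not a site.

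Short stretches with TNNGGCA and the ETS core are shown as examples of these matches, and they do not define groups of members. They run 5′ to 3′ on the gene's strand, with the match in capitals (RefSeq, GRCh38.p14).
THAP9, chr4:82900621-82900647, plus strand: tgtcattggcTACGGCAccggcgcagg
THAP8, chr19:36054385-36054411, minus strand: agggcgggacTGTGGCActgtggaggg
THAP11, chr16:67842232-67842258, plus strand: cacacccgccCCGGAAGtgagccgctt
THAP7, chr22:21002124-21002150, minus strand: atggtaccaaCTTCCGGcgcgcgctac
THAP5, chr7:108569751-108569777, minus strand: ctgtgcgccaCTTCCGGcttcaacccc
TNNGGCA lies on the gene's strand in THAP9 and THAP8, at positions -104 and -116. The ETS core reads on the gene's strand in THAP11 (-78) and on the other strand in THAP7 (-22). THAP5 has several starts, and it holds the core on the other strand in the stretch shown (-61 from one start) and on the gene's strand at -57 from another. The members with an ETS core differed by 0.63 (THAP7), 0.27 (THAP5) and -0.49 (THAP11), so they did not share a direction. Those with TNNGGCA in a window ran from -0.07 (THAP4) to 1.67 (THAP2).

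Genes that work with THAP proteins were taken from lists, and each is described by its counts and its median. HCF-1 and its partners had a median difference of 0.11 over 22 of 24 listed genes. Of these 2 were at least 1.5-fold higher (9.09%) and 2 lower (9.09%), near or below the shares of all genes. HCFC1, which encodes HCF-1, differed by 0.39 ± 0.08 (SD over 3 probe sets) and ZNF143, a zinc finger activator, by 0.56 (1 probe set), both short of 1.5-fold. OGT, which modifies and matures HCF-1, was 1.91-fold lower, at -0.93 ± 0.04 (SD over 3 probe sets), from 6.55 to 5.62. With its dim probe sets OGT differed by -0.54, short of the threshold. It spans 42.8 kb. ASXL2, a Polycomb-associated scaffold, was 1.53-fold lower at -0.61 ± 0.52 (SD over 3 probe sets), and it is long, at 145 kb. WDR5, a core subunit of histone H3 methyltransferases, was 1.67-fold higher at 0.74 ± 0.01 (SD over 2 probe sets), and CXXC1 of the SETD1 complexes 1.55-fold higher (1 probe set). They span 24.8 kb and 5.35 kb. With dim probe sets ASXL2 (-0.26) and CXXC1 (0.36) fell short as well.

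Corepressors and other proteins known to bind THAP proteins had a median of 0.18 over 8 of 11 listed genes, with 0 higher and 2 lower by 1.5-fold (0% and 25.0%, beside 8.23% and 14.2% of all genes). TBL1XR1, a subunit of the nuclear receptor corepressor complex, was 4.40-fold lower at -2.14 ± 1.15 (SD over 4 probe sets), from 8.12 to 5.99, with probe sets from -3.17 to -0.83. It is long, at 182 kb, and its difference lies below the lower quartile of the group of longest genes, -1.16. PAWR, a pro-apoptotic partner of THAP1, was 1.88-fold lower (8.55 against 9.46, 1 probe set) and is long as well, at 106 kb. HDAC3, the deacetylase recruited by THAP7, differed by 0.33 (1 probe set), and HTRA2, the protease that cleaves THAP5, by 0.35 ± 0.11 (SD over 4 probe sets). Both of these lay close to the poly-A controls.

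A list of cell cycle, proteasome and cobalamin genes, holding described targets of THAP1 and THAP11 and further genes of these pathways, had a median of 0.13 over 15 of 16 genes. Of these 1 was at least 1.5-fold higher and 2 lower, shares of 6.67% and 13.3% that are close to the 8.23% and 14.2% of all genes. RRM1, a ribonucleotide reductase subunit regulated by THAP1, differed by 0.13 ± 0.11 (SD over 4 probe sets), the value of the median gene. MMACHC, the cobalamin-processing gene that depends on THAP11, read 5.84 on both arrays (1 probe set). Other cobalamin genes differed more. CD320, the receptor for transcobalamin, was 1.98-fold higher (7.27 against 6.29, 1 probe set) and spans 6.23 kb. MTR, the methionine synthase, was 2.30-fold lower at -1.20 ± 0.77 (SD over 2 probe sets) and LMBRD1, a lysosomal exporter of cobalamin, read 5.95 against 6.94 (1 probe set). MTR and LMBRD1 are long genes, at 109 kb and 123 kb, and with a dim probe set MTR differed by -0.52. MCM2, a replicative helicase subunit, differed by 0.55 ± 0.04 (SD over 4 probe sets).

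Genes derived from DNA transposons, THAP9 among them, had a median of 0.33 over 22 of 33 listed genes. Of these 6 were at least 1.5-fold higher (27.3%) and 1 lower (4.55%), beside 8.23% and 14.2% of all genes. PGBD2 was 2.15-fold and PGBD3 2.07-fold higher, both of piggyBac origin with 1 probe set, and ZBED2, of hAT origin, was 1.59-fold lower (1 probe set). With the poly-A centring the list's median was 0.01, with 2 higher and 2 lower (9.09% each), where all genes had 1.86% higher and 23.2% lower. With no filter 5 of 31 were higher (16.1%), beside 4.40% of all genes, and the median was 0.26. The ZNF genes, the large family of zinc finger proteins, had a median of 0.33 as well. At least 1.5-fold higher were 72 of 286 (25.2%) and lower 12 (4.20%), beside the same 8.23% and 14.2% of all genes. ZNF227, ZNF441 and ZNF468 were 3.57-fold, 3.00-fold and 2.77-fold higher and ZNF638 2.82-fold lower. With the poly-A centring their median was 0.01, with 32 higher (11.2%) and 33 lower (11.5%), beside the same 1.86% and 23.2% of all genes. Centred on the median gene, 50 ZNF genes were higher (17.5%), beside 4.43% of all genes. With no filter their median was 0.16, beside 0.10 for all genes, and 56 of 495 were higher (11.3%). The share of higher genes in both lists was above that of all genes on each of these scales, while its size changed with the scaling and the filter. Median control values were 5.28 for the transposon-derived genes and 5.44 for the ZNF genes, beside 6.24 for all genes. Their median spans were 8.36 kb and 21.8 kb. Whether level or span bears on these shares was not tested. The median of the THAP members, 0.37, lay near those of both lists, and the difference from them was not tested.

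**Figure D5:**
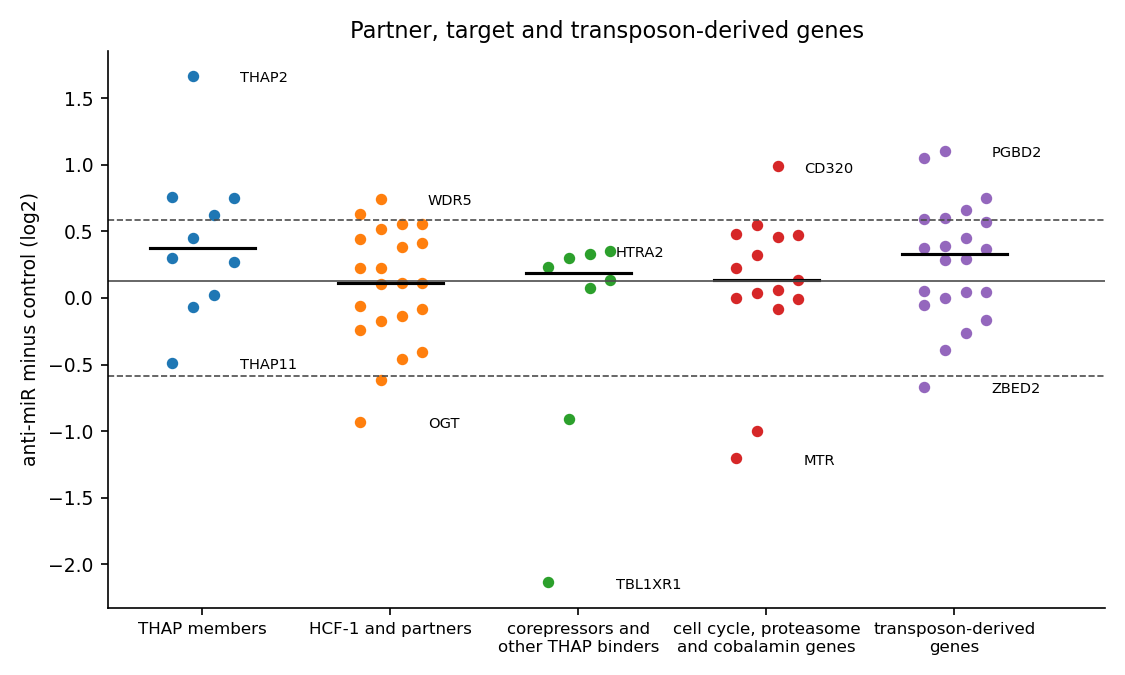
Anti-miR minus control difference (log2, y axis) of each gene with a value among the THAP members and the 4 lists of partner, pathway and transposon-derived genes, with a black bar at each median, dashed lines at 1.5-fold and a grey line at the median gene (0.13). The medians of the THAP members (0.37) and of the transposon-derived genes (0.33) lie above the other lists, and the farthest gene is TBL1XR1 at -2.14.

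The direction of the smaller differences rests on the scaling. With the authors' scaling, 36.7% of the genes past 1.5-fold were higher. This share was 20.4% with centring on the median gene, 22.4% with a lowess trend and 7.44% with the poly-A controls. On those scales 3, 3 and 1 of the 10 members were at least 1.5-fold higher, in that order, beside 4.43%, 4.85% and 1.86% of all genes. On each of them 1 member was lower, beside 17.3%, 16.8% and 23.2% of all genes. THAP2 was the member at least 1.5-fold higher on all of them and THAP11 the lower one.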

How the data were processed

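The authors deposited log2 expression values per probe set, and the submitters' processing notes name RMA as the method. Its version is not given in the sources used here. Platform annotation paired 45253 probe sets that are not array controls with 1 symbol, and 45172 matched the RefSeq gene table (GRCh38.p14) by Entrez ID. Probe sets below the median of both arrays were left out, which kept 24127 probe sets and 11272 genes. No detection calls were used. Precision is limited by having 2 arrays. The members, lists and thresholds were chosen with earlier results of these data known. Genes were named by rule: all members, their neighbours, up to 4 genes of each list with the largest absolute difference, partner and target genes fixed by name, GAPDH and ACTB, and 5 genes closest to THAP2. The gene summary was tested on simulated data without the median filter and with less noise than the pooled SD between probe sets. That test does not cover how the filter acts on THAP2 and THAP9. The files name no genome build, so coordinates are given only for RefSeq sequences. Alternatives were no filter, a 75th percentile filter, other gene summaries, 3 centrings, plain _at probe sets and a 2-fold threshold. Scripts ran in Python 3.11.15 with pandas 2.3.3, and statsmodels 0.14.6 fitted the lowess trend.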

Additional observations from a re-analysis of the deposited data

How the results depend on the processing

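No array could be left out, since none was replicated. No paired analysis was possible because neither group was replicated. Against 4 members at least 1.5-fold higher and 0 lower, with a median of 0.37, a 75th percentile filter gave 1 higher among the 5 members left (12.2% of all genes), and plain _at probe sets 2 higher among 3 (9.30% of all genes), with a median of 0.76; fewer members had a value in both. A 2-fold threshold gave 1 higher. Centring on the median gene and on a lowess trend gave 1 lower each, and centring on the poly-A controls 1 higher and 1 lower, with a median of 0.055; these shift all members by construction. No filter gave 3 higher (4.40% of all genes). Of the member differences under the alternatives, 47 moved by less than the SD between probe sets (the gene's own, or the pooled SD where it had 1) and 21 by more. Many of the 47 could not move, since the setting left the same probe sets in use. No member had more than 2 retained probe sets, so their median equalled their mean. The counts are therefore not a measure of stability. No member past 1.5-fold changed sign. Signal over background limits THAP2 and the other dim members.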
